A study of Mus musculus with 6 samples.

Results

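Immune cell marker genes are the 47 genes described here, out of 55401 gene IDs counted in the series. They were chosen by symbol from textbook markers of Kupffer cells, monocytes, dendritic cells, mast cells, B cells, plasma cells, T cells and natural killer (NK) cells, and all 47 were matched to 1 gene ID each. Polyadenylated RNA was sequenced from primary mouse cholangiocytes, the epithelial cells of the bile ducts, in 3 libraries from wild-type (WT) mice and 3 from mice with polycystic liver disease (PLD). Both groups were taken 3 months after tamoxifen, and the labels name the genotypes only as WT and PLD. The allele, the promoter that drives any recombinase, the strain and the age of the animals are not stated in the labels. Livers of both groups were perfused and digested, the biliary tree was freed of parenchymal cells and digested again, and cells were pulled down with an antibody to the epithelial surface protein EpCAM on magnetic beads.

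The liver holds a large resident population of macrophages, the Kupffer cells, which line the sinusoids and take up particles from portal blood. Monocytes, dendritic cells and lymphocytes gather around the portal tracts, next to the bile ducts. Selection for EpCAM is not directed at these cells, so their transcripts report which leukocyte RNA was still in a preparation, together with any of these genes that epithelial or endothelial cells themselves transcribe.

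Each library had 15768561 to 16710548 reads assigned to genes, and 3 reads corresponded to between 0.180 and 0.190 CPM (counts scaled to a common library size). The cholangiocyte markers Epcam, Krt7, Krt19 and Sox9 were present in all 6 libraries. All 10 cholangiocyte markers were higher in PLD, with a summed level of 8253 to 11891 CPM in WT and 28554 to 39958 CPM in PLD. All 15 endothelial markers were lower in PLD, with sums of 7445 to 9597 CPM in WT and 562 to 995 CPM in PLD. Of 11 fibroblast and stellate cell markers 9 were lower and 2 did not pass, with sums of 7424 to 12852 CPM in WT and 1712 to 4494 CPM in PLD. None of the markers in these 3 lists was at 0 reads in either group. Of 10 hepatocyte markers 2 were higher and 4 lower. In bulk RNA, fewer cells of a type and less RNA per cell cannot be told apart, and this holds for every difference below. Replicates differed beyond sampling noise in every pair, with chi-square values of 9.72 to 63.9 per degree of freedom, highest in the pairs with PLD replicate 1. Whether each library came from a different animal is not said in the labels, and p-values then cover only the spread of these libraries, which may be technical.

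The members did not all move one way between WT and PLD. Which cells their reads came from was not tested, and some may be transcribed by epithelial or endothelial cells. The receptor genes Csf1r and Cd14 and the immunoglobulin genes Igkc and Jchain were higher in PLD. Mrc1, Clec9a, Zbtb46, Hdc and Kit were lower by more than 4-fold. The complement genes C1qa, C1qb and C1qc, the adaptor gene Tyrobp and the transcription factor gene Spi1 differed by less than the spread between replicates. Of the 47 members 38 had enough reads to be tested and 9 did not. At an adjusted p under 0.05 (quasi-likelihood test of edgeR, adjusted by Benjamini-Hochberg over all genes tested), 6 of the 38 were higher and 11 lower in PLD. These 17 are 44.7% of the members tested, against 55.4% of all 15334 genes tested. By direction, 27.0% of all genes were higher and 28.4% lower. PLD and WT libraries were apart for 20 of the 38 members, against 66.2% of all genes, with PLD above for 7 (33.0% of all genes) and below for 13 (33.2%). The median log2 fold change of the tested members was -0.31, against 0.01 over all genes. Falls of at least 4-fold made up 5 of the 38 members and 8.24% of all genes, and rises of at least 2-fold 5 of the 38 members and 9.21% of all genes.

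**Figure D1:**
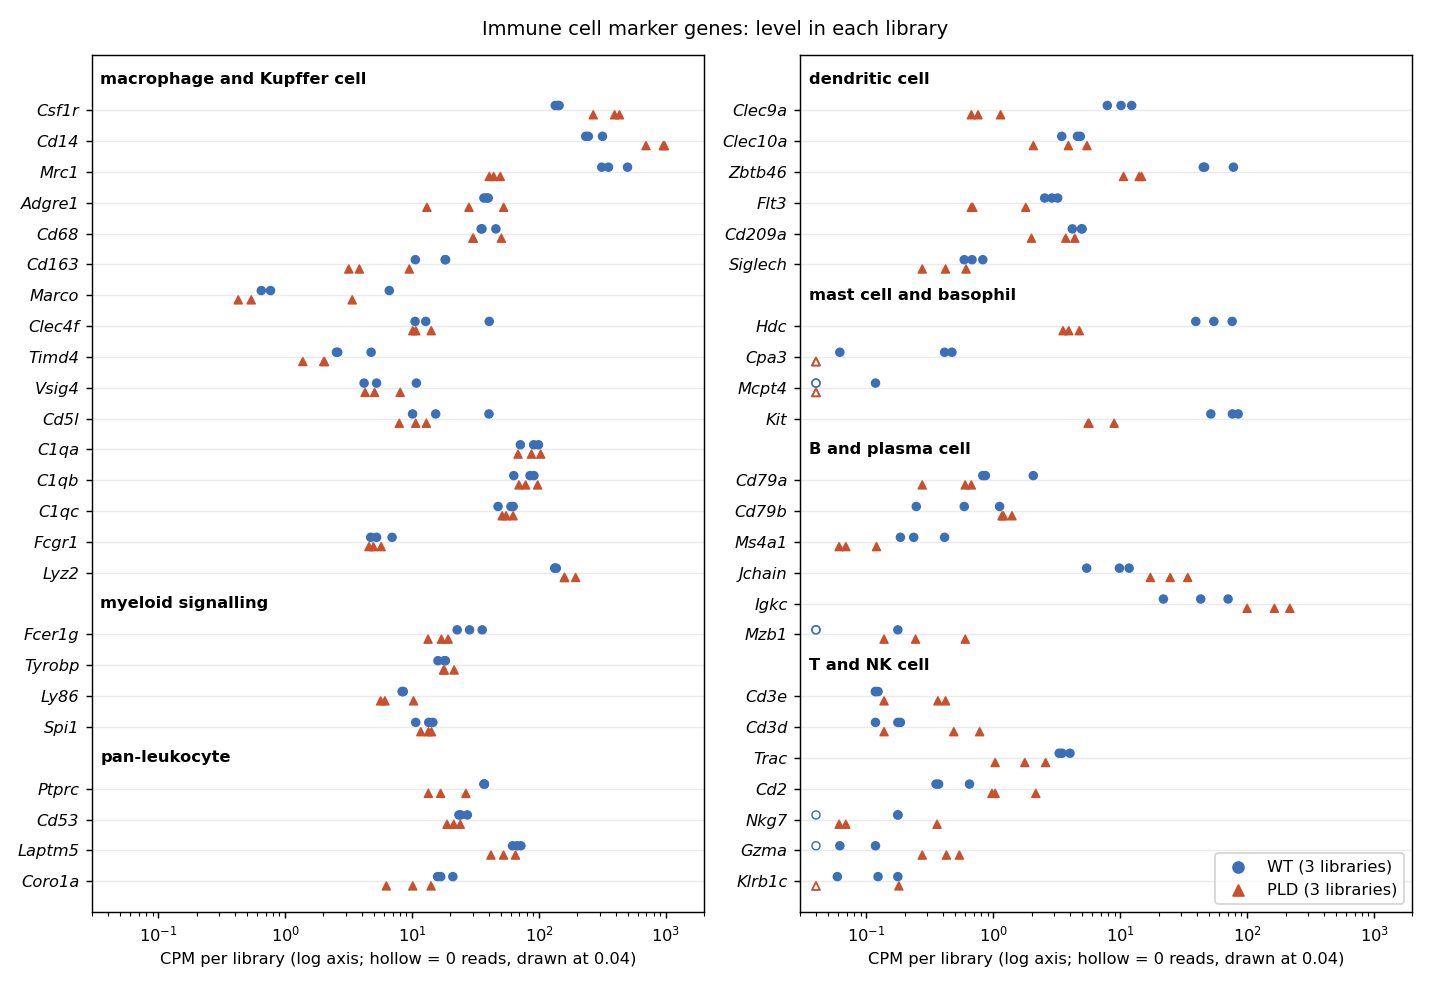
Level of each of the 47 members in each library, in CPM on a log axis, with WT as circles and PLD as triangles and hollow symbols for 0 reads. Csf1r, Cd14, Jchain and Igkc lie higher in PLD and Mrc1, Clec9a, Zbtb46, Hdc and Kit lower, whereas the C1q genes overlap and most T and NK cell genes lie under 1 CPM.

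**Figure D2:**
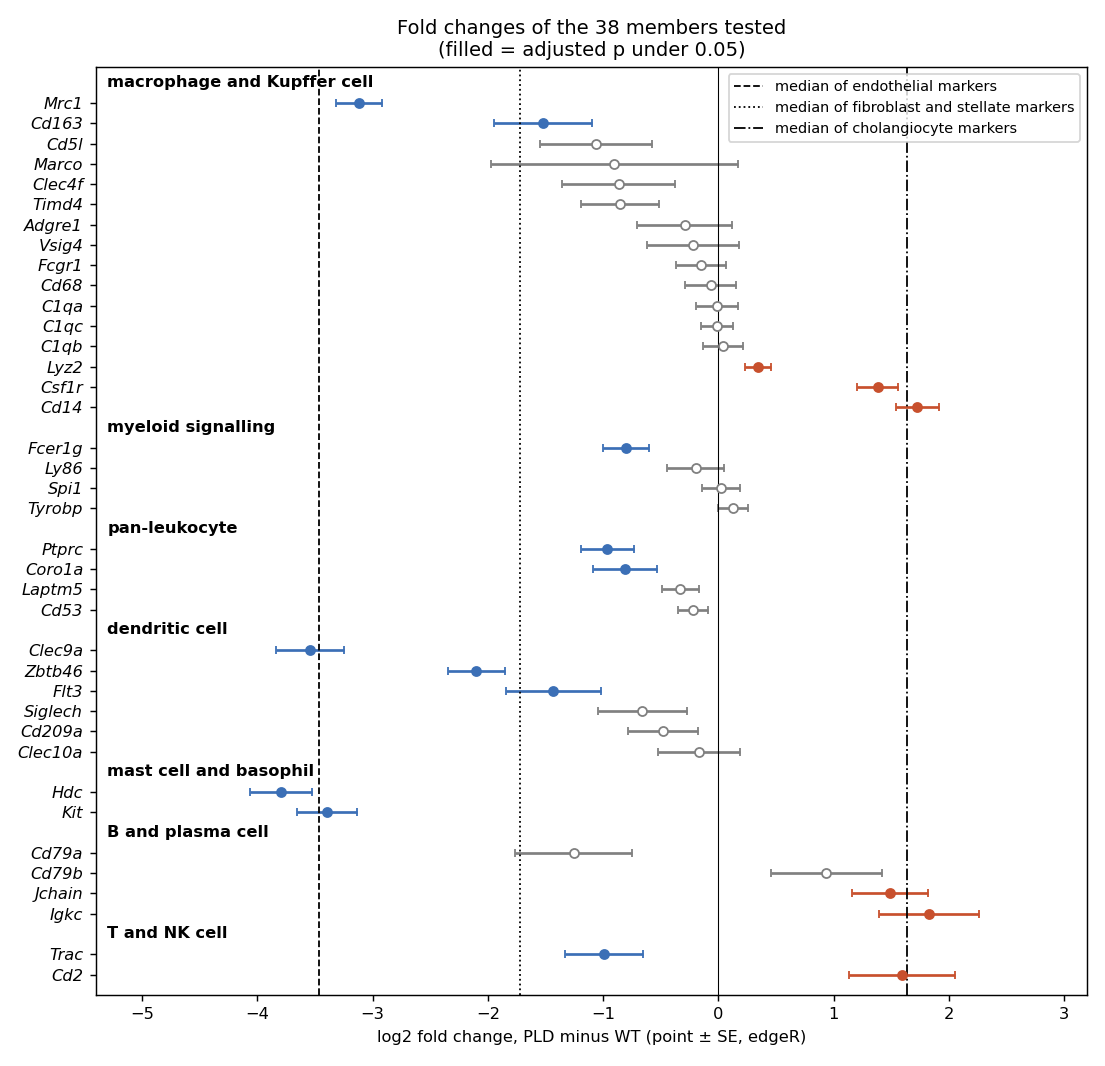
Log2 fold change of PLD minus WT with its standard error for the 38 members tested by edgeR, with filled points for an adjusted p under 0.05 and vertical lines at the medians of 3 marker lists of other cells. Hdc, Clec9a, Kit and Mrc1 lie near the endothelial median (-3.46), and Cd2, Cd14, Jchain and Igkc near the cholangiocyte median (1.63).

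Divided by summed exon length in kb, which makes levels comparable between genes (RPKM), Cd14 had the highest mean level of the members in both groups, with 152 RPKM in WT and 504 RPKM in PLD. Lyz2 (102 RPKM), Igkc (84.8 RPKM), C1qa (83.5 RPKM), C1qb (73.2 RPKM) and Mrc1 (60.7 RPKM) followed in WT. In PLD the order after Cd14 was Igkc (300.3 RPKM), Lyz2 (129 RPKM), C1qa (82.7 RPKM), C1qb (75.0 RPKM) and Csf1r (62.9 RPKM). The mean levels of the neighbours C1qa and C1qb differed by less than the SD between replicates in each group. That comparison does not pair the genes within a library, as the read ratios further below do. The lower end was formed by some lymphocyte and mast cell genes, with Cd3e, Klrb1c, Ms4a1, Mzb1, Gzma, Cd3d and Mcpt4 all under 0.1 RPKM in WT. Others of these lists lay higher in WT, such as Igkc, Hdc (8.86 RPKM) and Kit (7.96 RPKM).

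The stretches before the gene starts of 4 members are shown because these genes went different ways: Mrc1 and Kit fell by more than 4-fold, the adaptor gene Fcer1g fell by less than 2-fold, and C1qb did not pass the test. They come from RefSeq windows of build GRCm38.p6, cut where the gene models of the deposited tables begin. The 4 were chosen after their values were seen. For Clec9a, Zbtb46 and Hdc the RefSeq window lay inside a gene model and is not printed. Each is written 5′ to 3′ on the strand of its gene, and capitals mark AGGAAG or its reverse complement CTTCCT, a short form of the sequence bound by ETS family factors, which include the myeloid regulator PU.1 encoded by Spi1.
Mrc1 was taken from chr2:14229164-14229391 (plus strand), Kit from chr5:75574737-75574915 (plus strand), Fcer1g from chr1:171234366-171234599 (minus strand) and C1qb from chr4:136886201-136886450 (minus strand).
Mrc1: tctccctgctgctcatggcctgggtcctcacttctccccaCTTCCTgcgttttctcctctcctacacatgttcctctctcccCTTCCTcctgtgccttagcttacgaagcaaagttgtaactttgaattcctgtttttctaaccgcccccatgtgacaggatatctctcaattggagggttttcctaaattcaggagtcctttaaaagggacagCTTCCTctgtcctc
Kit: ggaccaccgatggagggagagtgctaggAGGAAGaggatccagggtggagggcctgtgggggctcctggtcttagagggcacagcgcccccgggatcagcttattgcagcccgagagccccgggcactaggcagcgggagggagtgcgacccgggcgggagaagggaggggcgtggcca
Fcer1g: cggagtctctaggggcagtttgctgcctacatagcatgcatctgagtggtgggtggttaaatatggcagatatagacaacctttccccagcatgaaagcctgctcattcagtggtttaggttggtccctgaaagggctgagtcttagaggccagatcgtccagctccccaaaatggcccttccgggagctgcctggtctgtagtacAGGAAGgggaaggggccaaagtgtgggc
C1qb: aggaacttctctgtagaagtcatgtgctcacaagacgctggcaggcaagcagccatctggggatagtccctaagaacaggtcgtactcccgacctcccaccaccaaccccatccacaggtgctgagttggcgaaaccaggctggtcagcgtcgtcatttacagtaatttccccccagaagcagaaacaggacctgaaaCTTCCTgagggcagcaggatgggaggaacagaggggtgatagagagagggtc
The letters occurred 3 times before Mrc1 and once each before Kit, Fcer1g and C1qb. Windows of 250 bases before the start were listed for 34 of the 47 members, 37 windows in all, and 22 of these (59.5%) held the letters on either strand. Over all 32851 windows the share was 29.5%. A match describes letters in a window and not a bound site.

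Of the 16 macrophage and Kupffer cell members 3 rose, 2 fell and 11 did not pass the test, with a median log2 fold change of -0.19. The share that passed was 31.25%, against 55.4% of all genes tested (27.0% higher and 28.4% lower). Those that did not pass include the C1q genes, Cd68 and Adgre1. C1qa, which encodes a chain of the complement recognition protein C1q and lies at chromosome 4, 136895917 to 136898803 (mm10), had 71.2, 98.8 and 90.6 CPM in WT replicates 1 to 3 and 68.2, 87.0 and 103 CPM in PLD. The groups overlapped fully, with means of 86.9 ± 14.2 and 86.1 ± 17.4 CPM (SD, n = 3 each) and PLD minus WT was -0.01 ± 0.18 on the log2 scale (SE; edgeR adjusted p = 0.956). Its neighbours C1qb and C1qc, which encode the other chains, had log2 fold changes of 0.04 ± 0.17 and -0.01 ± 0.14. Per 100 C1qa reads there were 88.7 to 93.5 C1qb reads in WT and 89.9 to 102 in PLD. For C1qc these were 66.7, 63.2 and 66.2 in WT and 75.0, 63.1 and 60.6 in PLD, and both ratios overlapped between the groups. Cd68, a lysosomal glycoprotein gene of macrophages, had 34.9, 45.6 and 35.5 CPM in WT and 50.4, 30.1 and 30.3 CPM in PLD, with the highest and the lowest values both in PLD. Fcgr1, the high-affinity IgG receptor gene, had a log2 fold change of -0.15 ± 0.22. The direction of C1qa, C1qb, C1qc, Cd68 and Fcgr1 depended on which library was left out, within -0.35 to 0.15.

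Adgre1, which encodes the macrophage surface protein F4/80, varied more within PLD than between the groups. It had 38.6, 36.7 and 39.7 CPM in WT and 13.1, 28 and 52.6 CPM in PLD, so that PLD replicate 1 lay lowest and PLD replicate 3 highest of all 6 libraries. On the log2 scale it differed by -0.29 ± 0.41 (edgeR adjusted p = 0.572), or by 0.08 without PLD replicate 1 and -0.88 without PLD replicate 3, where it passed the test.

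Csf1r and Cd14 were the macrophage-list genes that rose most in PLD. Csf1r encodes the receptor for the macrophage growth factors CSF1 and IL-34. It had 141, 134 and 144 CPM in WT and 267, 429 and 393 CPM in PLD. Every PLD library lay above every WT library, and PLD replicate 1 was the lowest of the PLD libraries. Csf1r rose by 1.38 ± 0.18 on the log2 scale (edgeR adjusted p = 6.38e-04). Cd14, the co-receptor gene for bacterial lipopolysaccharide, had 244, 233 and 316 CPM in WT and 695, 972 and 951 CPM in PLD. Its groups were likewise apart, and it rose by 1.72 ± 0.18 (edgeR adjusted p = 2.81e-04). Both calls held without any single library, with log2 fold changes of 1.25 to 1.57 for Csf1r and 1.64 to 1.87 for Cd14. Of the exonic bases of Csf1r, 15.1% are shared with the overlapping gene Hmgxb3.

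Set against other transcripts of the same library, these rises took different sizes. Per 100 reads of the 3 C1q genes there were 77.4, 53.2 and 61.0 Csf1r reads in WT and 141, 195 and 150 in PLD. For Cd14 the same ratio was 134, 92.3 and 134 in WT and 368, 441 and 362 in PLD. The groups did not overlap in either ratio, and p = 0.1 by an exact two-sided permutation test, the smallest that 3 against 3 libraries can give. Per 100 reads of Epcam, the epithelial gene used for selection, there were 35.8, 52.9 and 34.5 Csf1r reads in WT and 19.6, 44.2 and 42.9 in PLD. For Cd14 these were 62.0, 91.8 and 75.9 in WT and 51.1, 100.04 and 104 in PLD. Both Epcam ratios overlapped between the groups (exact permutation p = 0.8 each). The ratios were chosen after the values were seen, and the part of the epithelial share of a library in the rises was not tested.

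**Figure D3:**
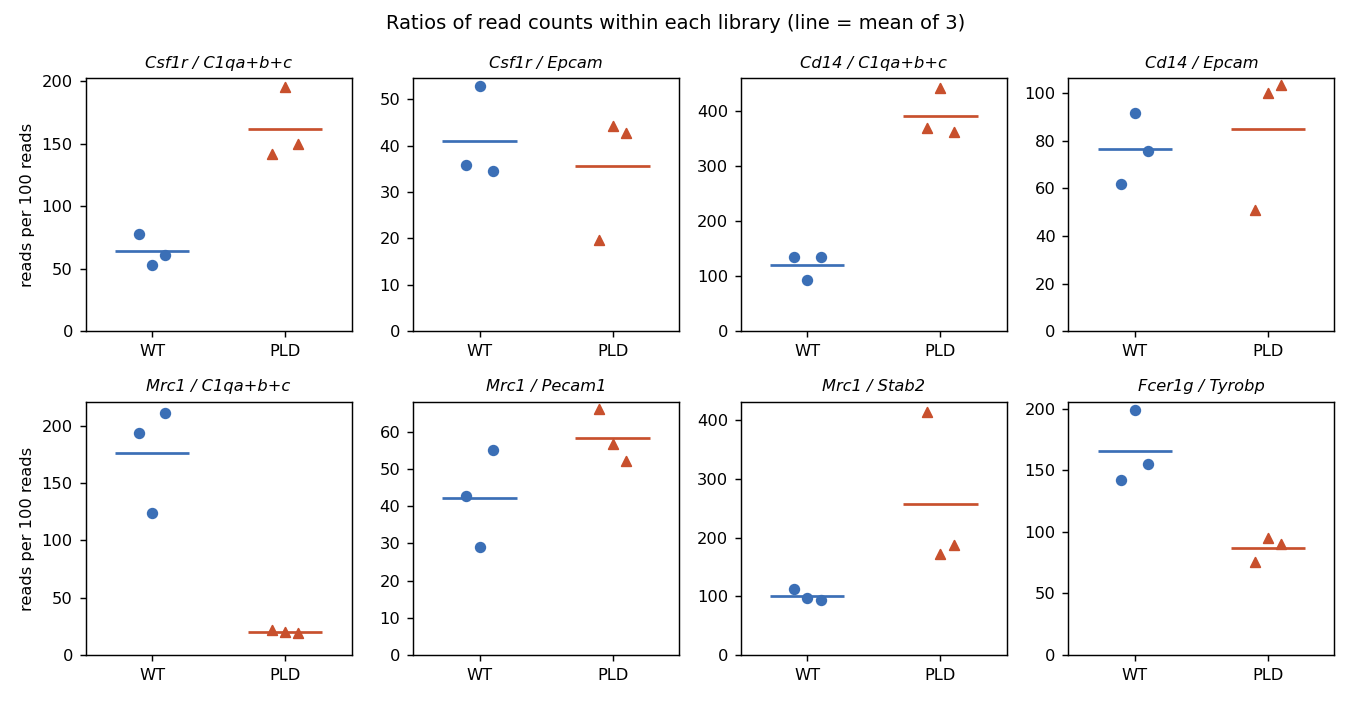
Read ratios within each library for 8 gene pairs, in reads per 100 reads of the second gene or genes, with 1 point per library and a line at the mean of 3. Csf1r and Cd14 are apart between WT and PLD when set against the C1q genes and overlap when set against Epcam, whereas Mrc1 lies lower in PLD against the C1q genes, overlaps against Pecam1 and lies higher in PLD against Stab2.

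Lyz2, the myeloid lysozyme gene, was slightly higher in PLD. It had 133, 133 and 136 CPM in WT and 158, 159 and 194 CPM in PLD, and rose by 0.34 ± 0.11 on the log2 scale (edgeR adjusted p = 0.0312). The call was lost without PLD replicate 3 and without any of the WT libraries (edgeR adjusted p up to 0.0808), and with the trend on gene length removed the log2 fold change was 0.04. Its near-identical paralog Lyz1 had 4 to 62 reads per library, and the file headers give no option to count reads that map to more than 1 place.

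Mrc1 and Cd163, scavenging receptor genes of tissue macrophages, were lower in PLD. Mrc1, the mannose receptor gene, is also known from the endothelium of liver sinusoids and lies at chromosome 2, 14229392 to 14332057. It had 352, 312 and 497 CPM in WT and 40.5, 43.8 and 49.5 CPM in PLD. The groups were far apart, and Mrc1 fell by 3.12 ± 0.20 on the log2 scale (edgeR adjusted p = 5.12e-05). Per 100 C1q reads there were 194, 124 and 211 Mrc1 reads in WT and 21.5, 19.9 and 18.8 in PLD. Per 100 reads of the endothelial gene Pecam1 there were 42.7, 28.9 and 55.0 in WT and 66.1, 56.7 and 52.1 in PLD, which overlapped (exact permutation p = 0.2). Per 100 reads of Stab2, a gene of sinusoidal endothelium, there were 112, 97.7 and 93.5 in WT and 415, 173 and 187 in PLD, which did not overlap (exact permutation p = 0.1, the smallest possible). Mrc1 was thus higher in PLD relative to Stab2, and its overlap relative to an endothelial gene depended on the gene chosen. The median log2 fold change of the endothelial markers was -3.46, and their part in the fall of Mrc1 was not tested. Cd163, the haemoglobin scavenger receptor gene, had 18.3, 10.6 and 18.2 CPM in WT and 9.49, 3.17 and 3.84 CPM in PLD, without overlap. It fell by 1.52 ± 0.43 (edgeR adjusted p = 0.0181). This call was lost without PLD replicate 2, PLD replicate 3 or WT replicate 3 (edgeR adjusted p up to 0.0622).

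The 5 genes that mark resident Kupffer cells most narrowly, Clec4f, Cd5l, Timd4, Vsig4 and Marco, did not pass edgeR's test. Timd4 was under an unadjusted p of 0.05, and by DESeq2 1 of the 5 passed, Cd5l (DESeq2 adjusted p = 0.0467). Clec4f, a Kupffer cell lectin gene, had 12.8, 10.5 and 40.5 CPM in WT and 10.1, 14.1 and 10.7 CPM in PLD. WT replicate 3 stood above the other 5 libraries, which overlapped. The same library was highest for Cd5l (40.3 CPM against 7.91 to 15.3 in the others), Timd4 (4.75 against 1.38 to 2.59), Vsig4 (10.8 against 4.18 to 8.05) and Marco (6.60 against 0.426 to 3.37). For Timd4 every WT library (2.59, 2.53 and 4.75 CPM) also lay above every PLD library (1.38, 2.01 and 2.04 CPM). Timd4 passed with the gene length trend removed (edgeR adjusted p = 0.0358). Summed over the 5 genes, WT replicate 3 had 103 CPM, the other WT libraries 36.6 and 28.1 CPM, and the PLD libraries 35.8, 32.3 and 25.4 CPM. Their log2 fold changes were -0.87 ± 0.49, -1.06 ± 0.48, -0.86 ± 0.34, -0.22 ± 0.40 and -0.90 ± 1.07 in the order named (edgeR adjusted p between 0.0644 and 0.659). Without WT replicate 3 they were 0.00, -0.27, -0.50, 0.29 and 1.00. The sinusoidal endothelial genes Stab2 (8614 reads against 5341 and 5418) and Clec4g (5653 against 3136 and 3434) were also highest in WT replicate 3 among the WT libraries. These 2 were picked from 15 endothelial markers after their values were seen. Summed over all 15, WT replicates 1 to 3 had 126389, 158486 and 155597 reads, or 7445, 9330 and 9597 CPM.

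**Figure D4:**
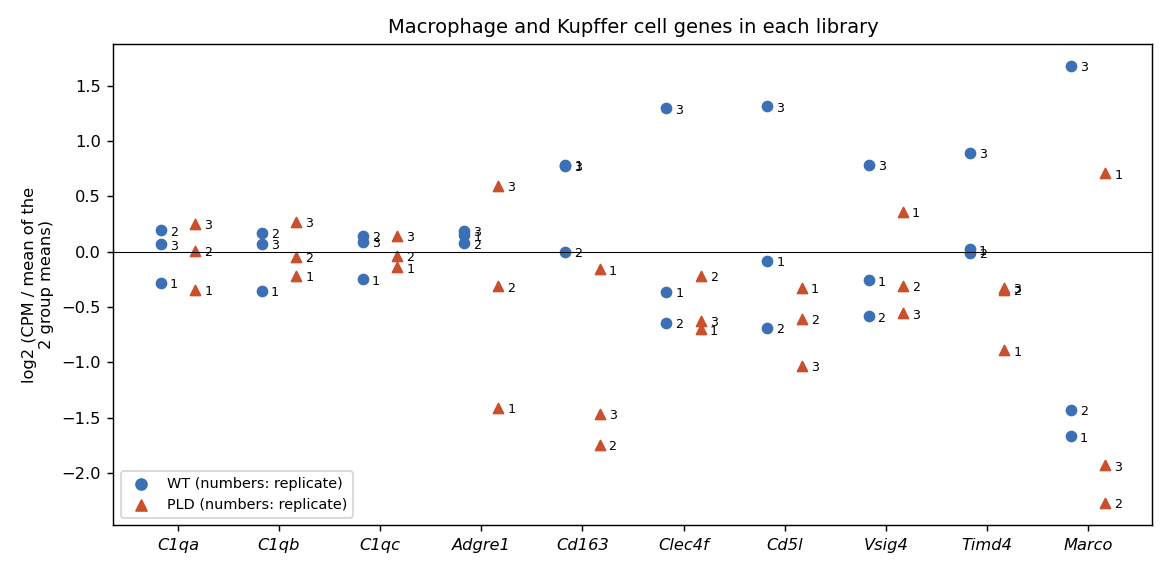
Level of 10 macrophage and Kupffer cell genes in each library, as log2 of the CPM over the mean of both group means, with replicate numbers beside the points. WT replicate 3 is the highest library for Clec4f, Cd5l, Vsig4, Timd4 and Marco, and the C1q genes overlap between WT and PLD.

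Fcer1g and Tyrobp encode small transmembrane adaptors that carry ITAM signalling motifs for Fc receptors and many activating receptors of myeloid and NK cells. Fcer1g had 22.6, 35.6 and 28.3 CPM in WT and 13.3, 17.0 and 19.2 CPM in PLD, while Tyrobp had 16.0, 17.9 and 18.3 CPM in WT and 17.7, 17.9 and 21.4 CPM in PLD. Fcer1g fell by 0.80 ± 0.20 on the log2 scale (edgeR adjusted p = 0.0114), and Tyrobp differed by 0.13 ± 0.13 (edgeR adjusted p = 0.423). Fcer1g lies at chromosome 1, 171229572 to 171234365, and Tyrobp at chromosome 7, 30413760 to 30417585. Per 100 Tyrobp reads there were 142, 199 and 155 Fcer1g reads in WT and 75.5, 94.9 and 89.6 in PLD. The ratio, chosen after the values were seen, did not overlap between the groups (exact permutation p = 0.1, the smallest possible). Spi1, which encodes the myeloid and B cell transcription factor PU.1, had a log2 fold change of 0.02 ± 0.16. Ly86, which encodes the partner of the surface protein CD180, had -0.20 ± 0.25.

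Of 4 genes shared by nearly all leukocytes, Ptprc and Coro1a fell and Cd53 and Laptm5 did not pass. For comparison, 28.4% of all genes tested were lower in PLD. Ptprc, which encodes the tyrosine phosphatase CD45, had 36.8, 37.0 and 37.1 CPM in WT and 13.4, 16.7 and 26.5 CPM in PLD. The WT libraries were nearly equal and the PLD libraries all lower, with PLD replicate 3 the highest of them. Ptprc fell by 0.97 ± 0.23 (edgeR adjusted p = 0.00928), and by 0.54 with the gene length trend removed, where it still passed (edgeR adjusted p = 0.0492). Coro1a, an actin regulator gene of leukocytes, had 15.8, 20.9 and 16.8 CPM in WT and 6.26, 10.1 and 14.1 CPM in PLD. It fell by 0.81 ± 0.28 (edgeR adjusted p = 0.0398), a call that was lost without PLD replicate 2 or without any 1 WT library. The lysosomal gene Laptm5 had 61.7, 71.8 and 66.9 CPM in WT and 41.7, 52.5 and 65.1 CPM in PLD (-0.33 ± 0.16), and the tetraspanin gene Cd53 had -0.22 ± 0.13. PLD replicate 1 was the lowest library for Ptprc, Coro1a and Laptm5, and PLD replicate 3 the highest PLD library for all 4 genes.

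Reads were also set against the summed reads of these 4 genes. This removes the leukocyte share of the library only for reads that come from leukocytes. Members that epithelial or endothelial cells may transcribe can carry other RNA on this scale, which was not tested. C1qa had 517, 630 and 626 reads per 1000 pan-leukocyte reads in WT and 825, 886 and 794 in PLD. Tyrobp had 116, 114 and 126 in WT and 214, 182 and 165 in PLD. Among the 34 other members tested, 13 were higher in every PLD library than in every WT library on this scale, 7 were lower in every PLD library, and 14 overlapped. Of all other genes tested, 47.8% were higher and 17.5% lower in every PLD library on the same scale, whose denominator was smaller in each PLD library than in each WT library. An exact permutation test on 3 against 3 libraries cannot go below p = 0.1, so none of these could reach 0.05. The denominators were 2337, 2665 and 2348 reads in WT and 1202, 1612 and 2162 in PLD. The median of these 34 members in each library differed by -0.09 on the log2 scale, PLD minus WT. With 18 other pan-leukocyte genes as denominator it differed by 0.21, against an SD between libraries of 0.41.

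Of 6 dendritic cell members 3 fell and 3 did not pass, with a median log2 fold change of -1.05. Over all genes tested, 28.4% were lower and 55.4% passed in either direction. Clec9a encodes a receptor of type 1 conventional dendritic cells for dead cells. It had 7.89, 10.1 and 12.3 CPM in WT and 0.756, 0.670 and 1.14 CPM in PLD, groups that lay far apart. It fell by 3.54 ± 0.29 on the log2 scale (edgeR adjusted p = 1.04e-04). Of the exonic bases of Clec9a, 5.59% are shared with the overlapping gene Clec1b. Xcr1, a chemokine receptor gene of the same cells, had 13 to 22 reads per library in WT and 13 to 23 in PLD, with a log2 fold change of -0.09 ± 0.35. Zbtb46, a transcription factor gene of conventional dendritic cells that is also known from endothelium, had 45.0, 46.1 and 77.8 CPM in WT and 10.6, 14.1 and 14.7 CPM in PLD, and fell by 2.10 ± 0.25 (edgeR adjusted p = 4.27e-04). Flt3, the growth factor receptor gene of dendritic cell precursors, had 2.53, 2.88 and 3.21 CPM in WT and 0.688, 0.670 and 1.80 CPM in PLD. It fell by 1.43 ± 0.41 (edgeR adjusted p = 0.0201), a call that was lost without PLD replicate 2, WT replicate 2 or WT replicate 3. Clec10a (-0.17), Cd209a (-0.48) and the plasmacytoid dendritic cell gene Siglech (-0.66) did not pass, and Siglech had 4 to 14 reads per library.

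Per 100 Pecam1 reads there were 0.957, 0.940 and 1.36 Clec9a reads in WT and 1.23, 0.867 and 1.20 in PLD (exact permutation p = 1.0). The same ratio for Zbtb46 was 5.46, 4.28 and 8.61 in WT and 17.3, 18.2 and 15.5 in PLD, without overlap (exact permutation p = 0.1, the smallest possible). Endothelial markers were lower in the same libraries, 15 of 15, with log2 fold changes from -4.24 to -2.62. For Clec9a and Zbtb46, ratios to endothelial genes other than Pecam1 were not taken. The part of endothelial RNA in the falls of Clec9a and Zbtb46 was not tested.

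Of 4 mast cell and basophil members 2 could be tested, Hdc and Kit, and both fell, beside 28.4% of all genes tested. Hdc encodes histidine decarboxylase, which makes histamine, and lies at chromosome 2, 126593667 to 126619299. It had 39.3, 76.0 and 54.5 CPM in WT and 3.92, 4.75 and 3.54 CPM in PLD. Kit, the receptor gene for stem cell factor (chromosome 5, 75574916 to 75656722), had 51.6, 76.4 and 84.7 CPM in WT and 5.57, 5.66 and 8.93 CPM in PLD. The groups were about an order of magnitude apart for both genes. Hdc fell by 3.80 ± 0.27 (edgeR adjusted p = 6.33e-05), and Kit fell by 3.39 ± 0.26 (edgeR adjusted p = 7.79e-05).

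The granule protease genes that define mast cells were at or near 0. Cpa3 had 7, 8 and 1 reads in WT and 0 in each PLD library, which makes it at least 5.35-fold higher in WT when 3 reads over the group are taken as the floor. Mcpt4 had 2 reads in WT and 0 in PLD. Among 7 further mast cell and basophil genes, none had more than 13 reads in a library, and their sums were 0.185 to 1.65 CPM in WT and 0.183 to 0.344 CPM in PLD. Per 100 Pecam1 reads there were 6.26, 7.09 and 9.38 Kit reads in WT and 9.09, 7.33 and 9.42 in PLD, and 4.76, 7.06 and 6.03 Hdc reads in WT and 6.40, 6.15 and 3.73 in PLD. Both ratios overlapped between the groups (exact permutation p = 0.3 and 0.7). Pecam1 was the only endothelial gene used here, and the 15 endothelial markers had log2 fold changes from -4.24 to -2.62. Whether the overlap holds for other endothelial genes, and the part of endothelial RNA in the falls, was not tested.

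Antibody genes of plasma cells were higher in PLD, while genes of mature B cells had few reads in both groups. Of 6 B and plasma cell members 2 rose, 2 did not pass and 2 had too few reads for the test. Among all genes tested 27.0% were higher in PLD. Igkc, the immunoglobulin kappa constant region gene, had 70.6, 43.0 and 21.8 CPM in WT and 216, 99.7 and 163 CPM in PLD. Jchain, which encodes the chain that joins IgA and IgM units, had 11.7, 9.83 and 5.43 CPM in WT and 24.7, 17.2 and 33.9 CPM in PLD. The groups did not overlap for either gene although the libraries within a group varied by up to 3.2-fold. Igkc rose by 1.82 ± 0.43 (edgeR adjusted p = 0.00919) and Jchain by 1.49 ± 0.33 (edgeR adjusted p = 0.00682), and both passed without any single library. Per 100 Jchain reads there were 402 to 602 Igkc reads in WT and 482 to 875 in PLD, which overlapped. The heavy chain genes Ighg2b (2.36 ± 0.36) and Igha (2.16 ± 0.41) rose as well, and Ighm had -0.67 ± 0.52 and did not pass. Mzb1, a plasma cell chaperone gene, had 3, 0 and 0 reads in WT and 2, 4 and 10 in PLD, and 57.2% of its exonic bases are shared with an overlapping gene. The plasma cell receptor gene Tnfrsf17 had 2 reads in WT and 0 in PLD.

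The B cell receptor component genes Cd79a and Cd79b went in opposite directions at low counts and neither passed. Cd79a had 14, 35 and 14 reads in WT and 4, 11 and 10 in PLD (log2 fold change -1.25 ± 0.51, edgeR adjusted p = 0.0688). Cd79b had 10, 19 and 4 reads in WT and 17, 23 and 20 in PLD (0.93 ± 0.48, edgeR adjusted p = 0.134). Ms4a1, the CD20 gene, had 14 reads over the WT and 4 over the PLD libraries, or 0.285 PLD reads per WT read after scaling to library size (0.0682 to 0.906 by a 95% exact binomial interval that covers counting error only).

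Most of the T and NK cell members lay near the limit of detection. Of the 7 members 5 did not have enough reads for the test. Cd3e had 6 reads over the WT and 15 over the PLD libraries, and Cd3d, a further chain of the same T cell receptor complex, 8 and 23. The ratio of PLD to WT was 2.49 (0.913 to 7.83 by the same interval) for Cd3e and 2.86 (1.24 to 7.41) for Cd3d. Gzma, a cytotoxic granule protease gene, had 0, 2 and 1 reads in WT and 4, 7 and 9 in PLD, a ratio of 6.64 (1.97 to 34.9). Without the filter on low counts Gzma passed edgeR's test (adjusted p = 0.0239) and did not pass DESeq2's (adjusted p = 0.0527). Nkg7 had 6 and 8 reads over the groups, and the NK receptor gene Klrb1c 6 and 3.

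Cd2, an adhesion gene of T and NK cells, had 11, 6 and 6 reads in WT and 15, 16 and 36 in PLD, and rose by 1.59 ± 0.46 (edgeR adjusted p = 0.0201). The call was lost without PLD replicate 3, WT replicate 2 or WT replicate 3. Trac, the T cell receptor alpha constant gene, had 59, 56 and 65 reads in WT and 15, 29 and 43 in PLD. It fell by 0.99 ± 0.34 (edgeR adjusted p = 0.0392), a call lost without any 1 library other than PLD replicate 3. Its groups did not overlap, with Trac lower in every PLD library. Trbc2, the beta chain counterpart of Trac, had 7, 7 and 4 reads in WT and 7, 16 and 25 in PLD.

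Among 66 other genes of these cell types that could be tested, 6 were higher and 25 lower in PLD. Their lists were drawn up by cell type, with earlier results of these data known. Of 18 other macrophage and monocyte genes tested, 3 were higher and 6 lower, with a median log2 fold change of -0.26. The apoptotic cell receptor gene Mertk (-2.80 ± 0.19) and the sialic acid lectin gene Siglec1 (-1.96 ± 0.33) were lower, and the iron exporter gene Slc40a1 (0.90 ± 0.10) was higher. Mpeg1, a macrophage pore protein gene, and Ctss, a lysosomal protease gene, had 0.15 each and did not pass. Of 18 other pan-leukocyte genes 12 were lower and 6 did not pass. Those with the smallest p were the phosphatase gene Inpp5d (-1.87 ± 0.18), Cd84 (-1.76 ± 0.28) and the adaptor gene Lcp2 (-1.06 ± 0.18). Of 9 other dendritic cell genes 4 were lower, among them Itgax (-1.11 ± 0.19), Irf8 (-0.76 ± 0.16) and Wdfy4 (-1.49 ± 0.38). Of 5 neutrophil genes tested 2 were lower, Csf3r (-1.59 ± 0.41) and S100a9 (-1.73 ± 0.54). Of 7 other B and plasma cell genes tested 3 were higher and 1 lower. The third that rose, Sdc1 (2.31 ± 0.16), had 182 to 232 CPM in WT and 866 to 1174 CPM in PLD, and it is also an epithelial gene. Of 9 other T and NK cell genes tested 0 passed by edgeR and 0 by DESeq2, and 0 were under an unadjusted p of 0.05 in edgeR. Zap70 (-0.87), Cd28 (-0.67) and Lck (0.59) had the smallest p among them. The 31 of 66 genes that passed are 46.97%, against 55.4% of all genes. By direction, the 6 higher and 25 lower of 66 stand beside 27.0% higher and 28.4% lower over all genes.

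The ligands and partners of the members included 1 gene that rose and 8 that fell among 17 tested. These are 52.9% of the 17, against 55.4% of all genes, of which 27.0% were higher and 28.4% lower. Kitl, the ligand gene of Kit, rose by 0.65 ± 0.16 on the log2 scale (203 ± 22.0 CPM in WT, 320 ± 60.6 CPM in PLD, edgeR adjusted p = 0.0103), while its receptor gene fell. Flt3l, the ligand gene of Flt3, fell by 1.15 ± 0.32 (edgeR adjusted p = 0.0168). Csf1, a ligand gene of Csf1r, had 216, 380 and 517 CPM in WT and 55.0, 204 and 216 CPM in PLD (-1.23 ± 0.51) and did not pass (edgeR adjusted p = 0.0752). Il34, the other ligand gene, had 0.03 ± 0.20. The C1 protease genes C1ra (-1.56 ± 0.16) and C1s1 (-1.32 ± 0.19), whose products act with C1q, fell, whereas the C1q genes did not pass. Tlr4 (-0.31 ± 0.19) and Ly96 (-0.04 ± 0.16), which act with Cd14, did not pass. The kinase gene Lyn fell by 0.67 ± 0.09 and Cd180, the partner of Ly86, had a log2 fold change of -1.117 ± 0.367 and was lower.

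Gene length moved with the fold change over the whole table. The median log2 fold change was 0.46 for genes under 1 kb of summed exon length, 0.31 from 1 to 2 kb, 0.11 from 2 to 4 kb, -0.05 from 4 to 8 kb and -0.26 over 8 kb. The members with the largest falls, Hdc, Kit, Mrc1 and Zbtb46, were all over 6 kb, and Clec9a was 3.29 kb. With the length trend of each library removed, an alternative added after seeing the data, these 5 had log2 fold changes of -3.67, -3.20, -2.99, -1.91 and -3.59 and all passed. Csf1r (1.48), Cd14 (1.47), Jchain (1.36) and Igkc (1.37) also passed. The median of the tested members moved from -0.31 to -0.49, with 5 higher and 14 lower, and Tyrobp moved from 0.13 to -0.30 without passing (edgeR adjusted p = 0.137).

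**Figure D5:**
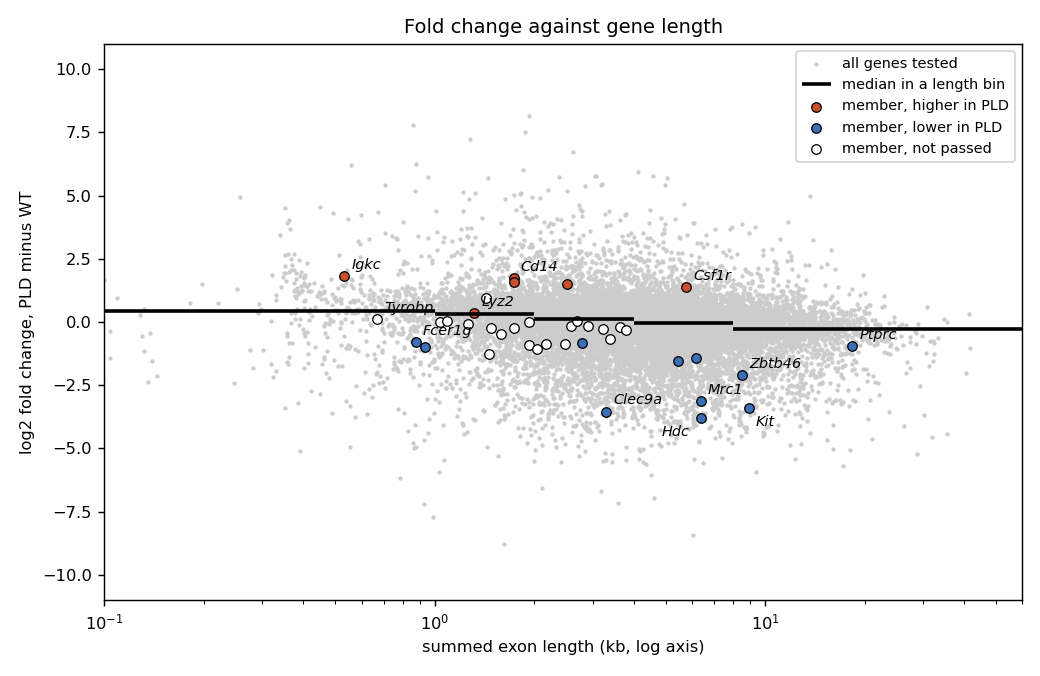
Log2 fold change of PLD minus WT against summed exon length in kb on a log axis, with all tested genes in grey, members as outlined points and bars at the median of each length bin. Bin medians go from 0.46 for the shortest genes to -0.26 for the longest, and Mrc1, Kit, Hdc, Zbtb46 and Clec9a lie below -2.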

How the data were processed

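Raw read counts per gene were deposited by the authors, 1 table per library, made with featureCounts 1.6.0 on mm10 with GENCODE vM25 and no option for strand, multi-mapping or overlapping features, per the file headers. STAR 2.7.4a and SAMtools 1.12 are named in the submitters' processing notes. The counts were tested as deposited with edgeR 4.0.16 in R 4.3.3: genes were kept by filterByExpr on group (15334 genes), scaled by TMM (factors 0.922 to 1.04) and fitted by quasi-likelihood with no covariate, PLD against WT. The filter can be met by 1 group alone. SE is the log2 fold change divided by the root of F. Levels are CPM after TMM scaling.

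DESeq2 1.42.0, other scaling, other filters, a replicate block and leaving out each library were the alternatives, and removal of a loess trend on gene length (span 0.5) was added after seeing the data. The scripts were tested on simulated data. Members and lists were chosen with earlier results of these data known. Named were members that passed, the highest member of each list and up to 3 genes of each other list with the smallest p. Xcr1, Mpeg1, Ctss, Ighm, Trbc2, Tnfrsf17, Lyz1 and the ligands and partners after C1ra, C1s1 and Lyn were named after their values were seen. So were Stab2 and Clec4g.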

Additional observations from a re-analysis of the deposited data

How the results depend on the processing

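The count of members higher in PLD (6) was 5 to 7 and that of members lower (11) was 11 to 14 under DESeq2, RLE scaling, other filters, the replicate block and removal of the length trend. Leaving out a library gave 4 to 6 higher and 7 to 12 lower, with 7 lower without PLD replicate 2 and 7 without WT replicate 3, 4 higher without PLD replicate 3 and 4 without WT replicate 3. The median log2 fold change (-0.31) was -0.49 with the length trend removed, and -0.51 (without PLD replicate 3) to -0.25 (without WT replicate 3). Of the 17 members that passed, 11 passed without any single library and 6 (Cd163, Cd2, Coro1a, Flt3, Lyz2 and Trac) did not. Lyz2 was also lost with the length trend removed. Some log2 fold changes near 0 changed sign: C1qa was 0.0076 and C1qc 0.0066 without a filter, and C1qb was -0.31, Tyrobp -0.30 and Spi1 -0.087 with the length trend removed. Leaving out a library gave ranges that cross 0 for Adgre1 (-0.88 to 0.079), Cd68 (-0.35 to 0.071), Marco (-2.43 to 1.00), Vsig4 (-0.52 to 0.29), C1qa (-0.15 to 0.14), C1qb (-0.10 to 0.15), C1qc (-0.12 to 0.065), Fcgr1 (-0.26 to 0.029), Spi1 (-0.10 to 0.12) and Clec10a (-0.51 to 0.13), and the cause was not tested. Members newly past the threshold were Adgre1, Cd5l, Cd79b and Laptm5 without 1 library, Cd53, Cd79a and Timd4 with the length trend removed, Cd5l and Cpa3 by DESeq2 and without a filter, Gzma without a filter, and Cd79a with the replicate block. Cpa3 and Gzma had too few reads for the filter used elsewhere. Whether replicate numbers pair the libraries could not be decided, since deviations from the mean of 3 libraries depend on each other. Deviations of same-numbered libraries correlated at 0.156, 0.0363 and 0.0613, and those of other pairs at -0.123 to 0.122. Not every library correlated best with its own number. The replicate block gave 6 higher and 12 lower and a median of -0.42.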
